A study of Mus musculus with 18 samples.

Results

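Cytosolic ribosomal proteins were followed in macrophages grown from mouse bone marrow, on single-colour arrays. The family was taken as every probe whose transcript accession maps in RefSeq to a symbol starting with Rpl or Rps and a digit, or to Rplp0, Rplp1, Rplp2 or Rpsa, without the Rps6k kinases and symbols with -ps. The rule found 172 of the 39429 probes, for 86 genes, and 85 of these genes (169 probes) were among the 20887 genes tested. They comprised 43 genes of the large subunit, 30 of the small subunit, the 3 stalk genes, 8 copies with a like-named parent gene, and Rps19bp1, whose product binds Rps19 and is not a ribosomal protein. Copies were grouped by name, and whether the product of each, such as Rpl7l1, takes a place in the ribosome was not tested. Rpl10l, a copy of Rpl10, had 2 probes that were above background in 0 samples and was not tested. A further 9 RefSeq symbols that fit the rule had no probe: Rpl32l, Rpl32p, Rpl37rt, Rpl6l, Rps12l1, Rps23, Rps27rt, Rps3a2 and Rps3a3.

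The 18 samples formed 6 groups of 3: PHD3-/- cells at oxygen 1, starved PHD3-/- cells, PHD3-/- controls, wild-type cells at oxygen 1, starved wild-type cells and wild-type controls. PHD3, encoded by Egln3, is an oxygen-dependent prolyl hydroxylase. Femur marrow of male C57BL/6J mice aged 8 weeks was differentiated into macrophages over 7 days, driven by macrophage colony stimulating factor. Controls and starved samples were at oxygen 20; the labels give oxygen as 1 or 20 without a unit, and do not say whether cells or mice were starved. How the knockout was made is not stated in them. Here PHD3-/- samples are called knockout and the samples at oxygen 1 are called low oxygen. The design text names 3 mice each without tying samples to mice, so the p-values measure the spread between these samples.

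Ribosomal proteins coat and stabilise the ribosomal RNA of both subunits: the small subunit reads the messenger, the large subunit joins amino acids, and the stalk recruits elongation factors. Their messengers are among the most abundant in a cell and typically begin with a pyrimidine tract, the TOP motif, through which growth signals such as mTORC1 and the RNA-binding protein Larp1 control their translation. Several genes have a copy whose product can take the parent's place, often in 1 tissue.

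A total of 64 of the 85 genes had a RefSeq promoter window, which runs from 250 bases before to 50 after the annotated start in GRCm38.p6. The windows below run from 20 bases before to 10 bases after that start and are shown for genes whose values the results turn on, core genes first and copies after them. Capitals mark a run of at least 5 pyrimidines over the start.
Rps27: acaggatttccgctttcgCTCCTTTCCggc
Rpl38: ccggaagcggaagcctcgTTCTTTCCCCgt
Rplp2: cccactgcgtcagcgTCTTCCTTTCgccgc
Rpl31: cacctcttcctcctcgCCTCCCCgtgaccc
Rpl22: atcagcgctgcttctggaatgttccagctc
Rps27l: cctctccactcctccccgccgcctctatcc
Rpl22l1: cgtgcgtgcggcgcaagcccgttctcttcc
Rpl7l1: gcccggtgaggctgcgcaagcgcagtagct
Rpl3l: cagctgagtgttctagctctgtcatttgac
The windows lie at chr3:90213639-90213668 (minus strand) for Rps27, chr11:114668560-114668589 (plus) for Rpl38, chr7:141447631-141447660 (plus) for Rplp2, chr1:39367831-39367860 (plus) for Rpl31 and chr4:152324416-152324445 (plus) for Rpl22. Those of the copies lie at chr9:66946066-66946095 (plus) for Rps27l, chr3:28805488-28805517 (plus) for Rpl22l1, chr17:46782647-46782676 (minus) for Rpl7l1 and chr17:24727806-24727835 (plus) for Rpl3l. The start is at base 21 of each line. Rpl22, Rps27l and Rpl3l have a second annotated start, which is not shown. Among core genes named below but not shown, Rpl37a, Rpl27, Rpl9, Rpl5 and Rpl11 lack such a run over the start. Rps6, Rpl34, Rpl35a and Rpl39 hold it in a window, and the share over all windows follows.

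The pyrimidine run lay over the start in 30.3% of the 66 windows of subunit and stalk genes, against 10.1% of all 32851 promoter windows. It was present in 1 of 9 windows of the copies (11.1%), in 1.89% of the 53 windows of ribosome assembly genes and in 5.33% of the 75 windows of mitochondrial ribosomal proteins. Counted by gene, 20 of 56 subunit and stalk genes held it, and an annotated start can lie some bases away from the start used in these cells. The letters CGGAAG, searched on both strands over the whole window, were in 63.6% of the subunit and stalk windows, 53.3% of the mitochondrial ribosomal and 45.3% of the assembly windows, against 16.9% of all windows. The letters ACGTG and GCGTG, the core of the HIF site, were in 34.8% and 56.1% of the subunit and stalk windows, against 19.6% and 32.4% of all windows. They were in 45.3% and 66.0% of the assembly windows and in 25.3% and 56.0% of the mitochondrial ribosomal windows. The search for ACGTG also counts every CACGTG, which was in 12.1% of the subunit and stalk windows and 22.6% of the assembly windows, against 7.15% of all windows.

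Values are log2 signals minus the 75th percentile of the array, so that 0 is that percentile, and a gene is read from its brightest probe. The median SD between samples of a group was 0.15 for the 76 subunit and stalk genes and 0.20 for all genes tested. The 20 arrays lay on 5 slides, 56.1% to 65.4% of their spots were well above background, and no spot was saturated. The summed level of 6 tested macrophage markers was 7.90 to 8.46 on the log2 scale in all samples, and all 6 were above background in every sample. It was 8.14 to 8.38 in knockout cells at low oxygen, against 7.92 to 8.12 in knockout controls. In wild-type cells it was 8.40 to 8.46 at low oxygen, against 8.18 to 8.39 in controls. Of these 6 markers, 1 rose and 2 fell at low oxygen in each genotype, where 21.3% and 20.5% of all genes rose and 18.2% and 18% fell. Under starvation 0 of them passed. The summed level of 5 proliferation genes was 1.65 to 2.22 at low oxygen, 2.45 to 2.65 when starved and 3.55 to 3.88 in controls. The 7 neutrophil markers summed to 2.37 to 3.27 at low oxygen, 2.50 to 3.22 when starved and 3.27 to 4.23 in controls. Sums are of unlogged signals, so bright markers weigh most. Gene by gene, 4 of these 7 were higher and 1 lower at low oxygen than when starved in each genotype. The median log2 difference was 1.54 in knockout and 1.51 in wild-type cells. Of all genes, 19.2% and 19.8% were higher and 17.8% and 18.2% lower. The 4 tested lymphocyte markers summed to 1.93 to 2.32 at low oxygen, 2.58 to 3.04 when starved and 2.80 to 3.17 in controls, and the 5 stromal markers to 0.090 to 0.85, -1.07 to -0.65 and -0.055 to 0.75. Only 2 of 5 dendritic and 1 of 5 erythroid markers were tested. What part these shifts in proliferation and other cell types have in the results below was not tested. In bulk samples, fewer cells of a type and less RNA per cell cannot be told apart. Many ribosomal proteins have processed pseudogenes in the mouse genome, and probe sequences were not used here, so probes that also read such copies cannot be named.

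Rpl22l1 fell under starvation in both genotypes. Its parent gene, Rpl22, encodes a protein of the large subunit that in mice represses Rpl22l1. Rpl22l1 read 4.22, 4.53 and 4.05 in starved knockout cells, against 4.96, 5.22 and 5.21 in knockout controls. It read 4.13, 4.10 and 4.25 in starved wild-type cells, against 5.07, 4.87 and 5.05 in wild-type controls. All starved samples were below all controls in both genotypes. The fall was 1.82-fold in knockout cells (log2 -0.86 ± 0.17 SE, limma adjusted p = 0.00360) and 1.79-fold in wild-type cells (-0.84 ± 0.17, adjusted p = 0.00463). Both calls held in all 31 alternative fits, with log2 values of -0.99 to -0.76 in knockout cells and -0.92 to -0.80 in wild-type cells.

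At low oxygen Rpl22l1 fell as well, with more scatter. It read 4.67, 4.71 and 4.27 in knockout cells at low oxygen, against the knockout controls above, and 4.68, 4.08 and 4.74 in wild-type cells at low oxygen, against the wild-type controls above. Again no stressed sample reached its controls. The log2 change was -0.58 ± 0.17 (SE, adjusted p = 0.0153) in knockout cells and -0.50 ± 0.17 (adjusted p = 0.0348) in wild-type cells. Its direction held in 31 of 31 alternatives and its call in 27 and 23. Without replicate 2 of the wild-type cells at low oxygen, the lowest sample, the wild-type change was -0.29 (adjusted p = 0.173), and without replicate 3 of the knockout cells at low oxygen the knockout change was -0.44 (adjusted p = 0.0767). Without replicate 2 of the knockout controls it was -0.54 (adjusted p = 0.0543), and without replicate 1 or 3 of the wild-type controls it was -0.46 (0.0908) or -0.47 (0.0934).

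Rpl22 itself did not pass the test under starvation, with log2 changes of 0.021 in knockout cells and -0.091 in wild-type cells (adjusted p = 0.932 and 0.672). Its other probe, which read 1.61 on average, gave -0.75 and -0.71 under starvation in knockout and wild-type cells (limma adjusted p over all probes of 2.35e-04 and 3.95e-04). The probes of Rpl22 thus differed in call, and which transcripts each reads was not tested.

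Rpl7l1, an Rpl7-like protein, fell at low oxygen in both genotypes and rose under starvation in knockout cells. It read -0.87, -0.99 and -0.81 in knockout cells at low oxygen, -0.07, -0.09 and -0.28 in starved knockout cells, and -0.50, -0.39 and -0.79 in knockout controls. In wild-type cells it read -1.02, -0.93 and -0.74 at low oxygen, -0.16, -0.27 and -0.47 when starved, and -0.60, -0.53 and -0.56 in controls. In both genotypes the low-oxygen samples were lowest, the starved samples highest and the controls between them, without overlap. Low oxygen against starvation gave -0.75 ± 0.12 (SE, limma adjusted p = 1.72e-04) in knockout cells and -0.60 ± 0.12 (adjusted p = 0.00110) in wild-type cells, and both calls held in all 31 alternatives.

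Against controls the changes of Rpl7l1 were smaller. It fell by 0.33 on the log2 scale at low oxygen in knockout and in wild-type cells (adjusted p = 0.0371 and 0.0378), calls that 10 and 9 of 31 alternatives ended with the direction kept. Among single samples, leaving out replicate 1 or 2 of the knockout controls (-0.30 and -0.25), replicate 1 or 2 of the knockout cells at low oxygen (-0.34 and -0.28), any wild-type control (-0.35, -0.32 and -0.33) or replicate 1 or 2 of the wild-type cells at low oxygen (-0.27 and -0.32) ended them. Under starvation it rose by 0.42 in knockout cells (adjusted p = 0.0303) and the wild-type value was 0.27 (adjusted p = 0.187). The knockout call was lost without replicate 1 (0.45) or 3 (0.30) of the controls or without replicate 1 (0.38) or 2 (0.39) of the starved cells.

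Rps27l, the copy of the small-subunit protein Rps27 and a known target of p53, showed the same order of conditions. It read 5.41, 5.65 and 5.47 in knockout cells at low oxygen, 6.02, 5.94 and 6.11 in starved knockout cells, and 5.76, 5.85 and 5.87 in knockout controls. The wild-type readings were 5.60, 5.58 and 5.46 at low oxygen, 5.96, 5.98 and 6.04 when starved, and 5.80, 5.71 and 5.71 in controls. The 3 conditions did not overlap in either genotype. Low oxygen against starvation gave -0.51 ± 0.084 (SE, adjusted p = 2.37e-04) in knockout cells and -0.45 ± 0.084 (adjusted p = 7.10e-04) in wild-type cells, called in all 31 alternatives. Against controls, the fall at low oxygen passed in knockout cells (-0.32, adjusted p = 0.00744) and the wild-type value was -0.19 (adjusted p = 0.0863), while starvation gave 0.19 and 0.26 (adjusted p = 0.161 and 0.0621).

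Its parent Rps27, a zinc-finger protein of the small subunit, had the opposite sign at low oxygen. Rps27 read 7.25, 7.51 and 7.14 in knockout cells at low oxygen, against 6.97, 6.86 and 6.97 in knockout controls, and 7.40, 7.49 and 7.31 in wild-type cells at low oxygen, against 7.10, 6.96 and 6.92 in wild-type controls. All low-oxygen samples were above all controls, and its second probe gave 0.41 and 0.47 on the log2 scale. The change of the brightest probe was 0.37 ± 0.099 (SE, limma adjusted p = 0.00800) in knockout cells and 0.41 ± 0.099 (adjusted p = 0.00471) in wild-type cells, but under quantile normalization the values were 0.048 and -0.0016, so that the wild-type sign of Rps27 turned with the scaling. The sign of Rps27l at low oxygen held in 31 of 31 alternatives in both genotypes.

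Rpl3, a large-subunit protein near the peptidyl transferase centre, and Rpl3l, the copy that replaces it in striated muscle, moved apart at low oxygen. Rpl3 read 5.59, 5.48 and 5.28 in knockout cells at low oxygen, against 5.90, 6.03 and 5.63 in knockout controls. It read 5.47, 5.14 and 5.43 in wild-type cells at low oxygen, against 5.63, 5.83 and 5.79 in wild-type controls. The groups did not overlap, and the fall was 1.32-fold in both genotypes (log2 -0.40 ± 0.14 SE in each, adjusted p = 0.0383 in knockout and 0.0405 in wild-type cells). It kept its direction in 31 of 31 alternatives. Its call was lost in 8 of 31 alternatives in each genotype, among them leaving out replicate 1 (-0.38) or 2 (-0.31) of the knockout controls, replicate 2 (-0.42) or 3 (-0.32) of the knockout cells at low oxygen, replicate 2 (-0.36) or 3 (-0.38) of the wild-type controls and replicate 2 (-0.30) or 3 (-0.44) of the wild-type cells at low oxygen.

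Rpl3l was close to background, and above it in 12 of 18 samples, including all 6 at low oxygen and 1 of 3 controls in each genotype. It read -3.71, -3.69 and -3.97 in knockout cells at low oxygen, against -5.90, -6.80 and -6.56 in knockout controls. It read -4.12, -3.85 and -3.44 in wild-type cells at low oxygen, against -5.78, -6.43 and -6.23 in wild-type controls. All low-oxygen samples were above the controls, by 2.63 ± 0.30 (SE, adjusted p = 6.74e-06) in knockout cells and 2.34 ± 0.30 (adjusted p = 2.25e-05) in wild-type cells on the log2 scale. The size rests on controls of which 2 of 3 were not well above background: with the normexp background correction it was 1.03 and 0.99 (adjusted p = 0.0614 and 0.0761). Starvation gave 0.87 in knockout cells, with values of -5.59, -6.09 and -4.96, and -0.092 in wild-type cells, with values of -5.83, -6.60 and -6.29 (adjusted p = 0.0727 and 0.910). The knockout value passed without replicate 1 of the controls (1.13, adjusted p = 0.0324) and without replicate 2 of the starved cells (1.15, adjusted p = 0.0284). The difference of these starvation responses, 0.96 ± 0.42, did not pass (limma adjusted p = 1.00).

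**Figure D1:**
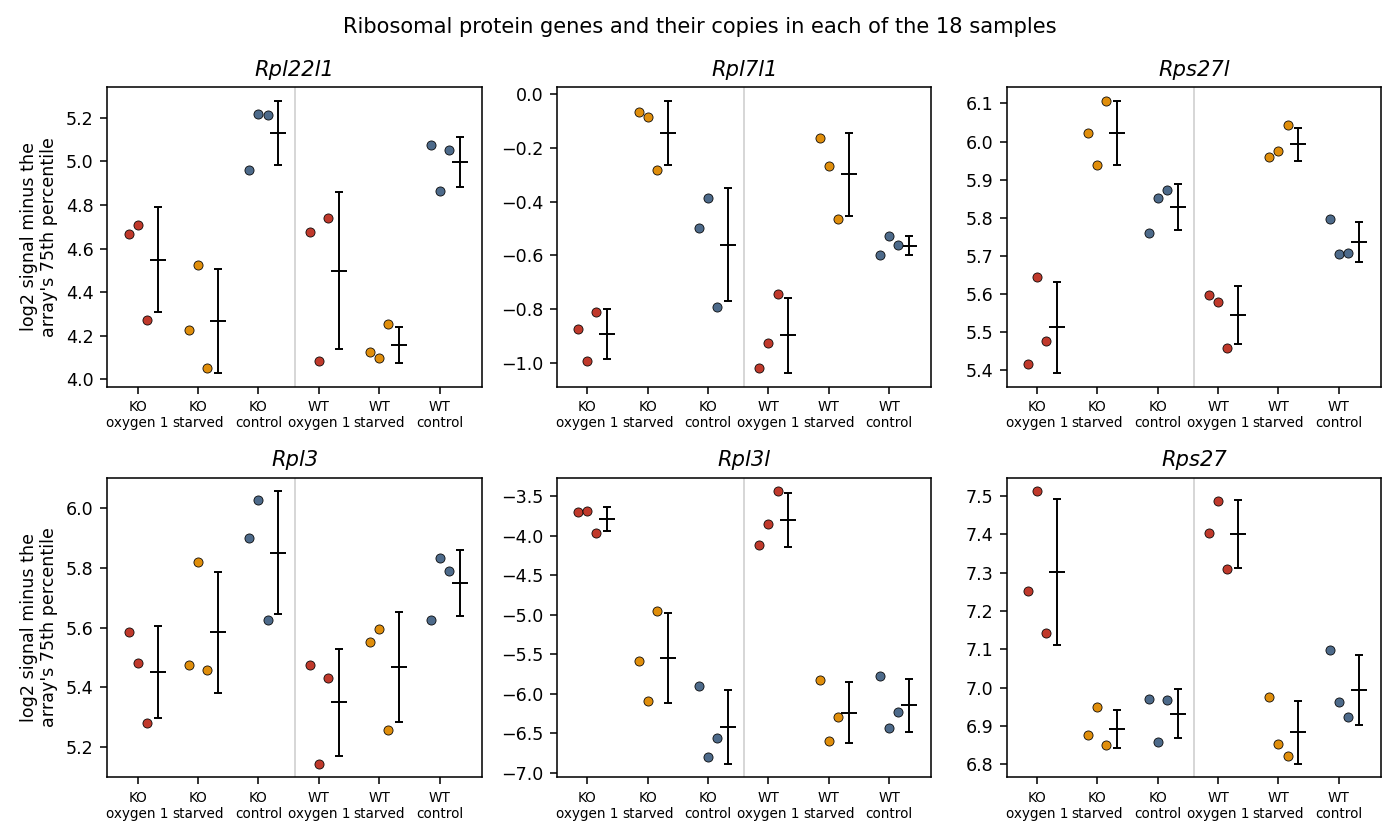
Each point is 1 sample, and its height is the log2 signal minus the 75th percentile of its array; bars to the right of the points give the mean and SD of 3 samples. Rpl22l1 is lower under both stresses, Rpl7l1 and Rps27l are lowest at low oxygen and highest when starved, Rpl3 is lower and Rpl3l higher at low oxygen, and Rps27 is higher at low oxygen on this scale.

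Rpl7, the gene that Rpl7l1 is named after, had the opposite sign to Rpl7l1 at low oxygen on the main scale, at 0.24 in knockout and 0.25 in wild-type cells (limma adjusted p = 0.0275 and 0.0247), but read -0.042 and -0.13 with quantile normalization. Its call held in 19 of 31 alternatives in knockout and 21 in wild-type cells, and slide as a block ended it in knockout cells (0.23, adjusted p = 0.0657). None of the other copies passed the test against controls. Rpl39l, a copy of Rpl39 known from male germ cells, read between -6.50 and -1.92 over the samples, with starvation values of -1.22 ± 0.84 in knockout cells and -1.12 ± 0.84 in wild-type cells (SE, adjusted p = 0.425 and 0.495). Wild-type replicate 2 was lowest in each condition, at -4.35 at low oxygen, -6.50 when starved and -4.25 in controls. Each starved sample was below the same-numbered control in both genotypes. The fit did not pair samples, so its SE includes this difference between replicates. The parent of Rpl39l, Rpl39, gave 0.0010 and -0.086 under starvation, and 0.076 and 0.019 at low oxygen. Rpl36al, a copy of Rpl36a, gave 0.16 and 0.19 at low oxygen in knockout and wild-type cells (adjusted p = 0.397 and 0.310), Rps4l, a copy of Rps4x, gave -0.23 and -0.17 (0.733 and 0.805), and Rps23rg1, a mouse retrogene of Rps23, gave 0.080 and -0.012 (0.791 and 0.971). Rps19bp1 gave -0.045 and -0.14 (adjusted p = 0.830 and 0.475). Rps4l was lowest in wild-type replicate 1 and highest in knockout replicate 3 in each condition, which the unpaired fit does not take into account.

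The family as a group moved little at low oxygen, and its direction depended on the scaling. On the main scale 8 of 85 genes rose and 4 fell in knockout cells, where 21.3% of all genes tested rose and 18.2% fell, and 16 rose and 3 fell in wild-type cells, where 20.5% and 18% did. The shares of rising genes were thus near or below those of all genes. Of the 76 subunit and stalk genes alone, 7 rose and 1 fell in knockout cells, and 15 rose and 1 fell in wild-type cells. Their medians were 0.19 and 0.25. The median log2 change of the 85 genes was 0.18 in knockout cells, against 0.031 over all genes, and 0.24 in wild-type cells, against 0.035 over all genes. Of the 85 genes, 77 were above 0 in knockout cells and 72 in wild-type cells, but with quantile normalization the medians were -0.059 and -0.091, and 1 gene rose in each genotype while 4 and 6 fell. The authors' deposited value table gave -0.032 and -0.094, with 1 rise in each genotype and 5 and 7 falls.

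Scaling to each array's median shifted the median of all genes to -0.076 in knockout and -0.12 in wild-type cells, and split the calls of all wild-type genes into 2870 rises and 5389 falls, against 4279 and 3761 on the main scale. Relative to that shift the family was 0.15 higher in knockout and 0.20 higher in wild-type cells, as on the main scale, whereas with quantile normalization it was 0.025 and 0.040 below all genes. The level of the brightest genes moved with the family: the 99th percentile of all genes was 7.25, 7.54 and 7.08 in knockout cells at low oxygen, against 6.98, 6.95 and 7.05 in knockout controls. It was 7.40, 7.46 and 7.29 in wild-type cells at low oxygen, against 7.16, 6.87 and 6.94 in wild-type controls. The part of this shift of bright genes in the result was not tested.

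Samples differed too. The family median was 6.95, 7.13 and 6.82 in knockout cells at low oxygen, against 6.82, 6.80 and 6.83 in knockout controls, so that replicate 3 lay within its controls. It was 7.04, 6.95 and 7.07 in wild-type cells at low oxygen, against 6.86, 6.77 and 6.85 in wild-type controls. Without replicate 3 of the knockout cells at low oxygen 18 genes rose, and without replicate 2, the highest, 3 rose. In wild-type cells 22 rose without replicate 1 of the controls and 8 without replicate 2 of the controls. Within slides the median was -0.068, 0.26 and 0.22 in knockout cells on slides 1, 3 and 5, the 3 that held both groups. It was 0.12 in wild-type cells on the 1 slide that did. Each value sets 1 array against 1 array. Both positive knockout values come from replicate 1 at low oxygen, and slides 1 and 5 share replicate 1 of the controls. Slide 4 held no low-oxygen array.

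**Figure D2:**
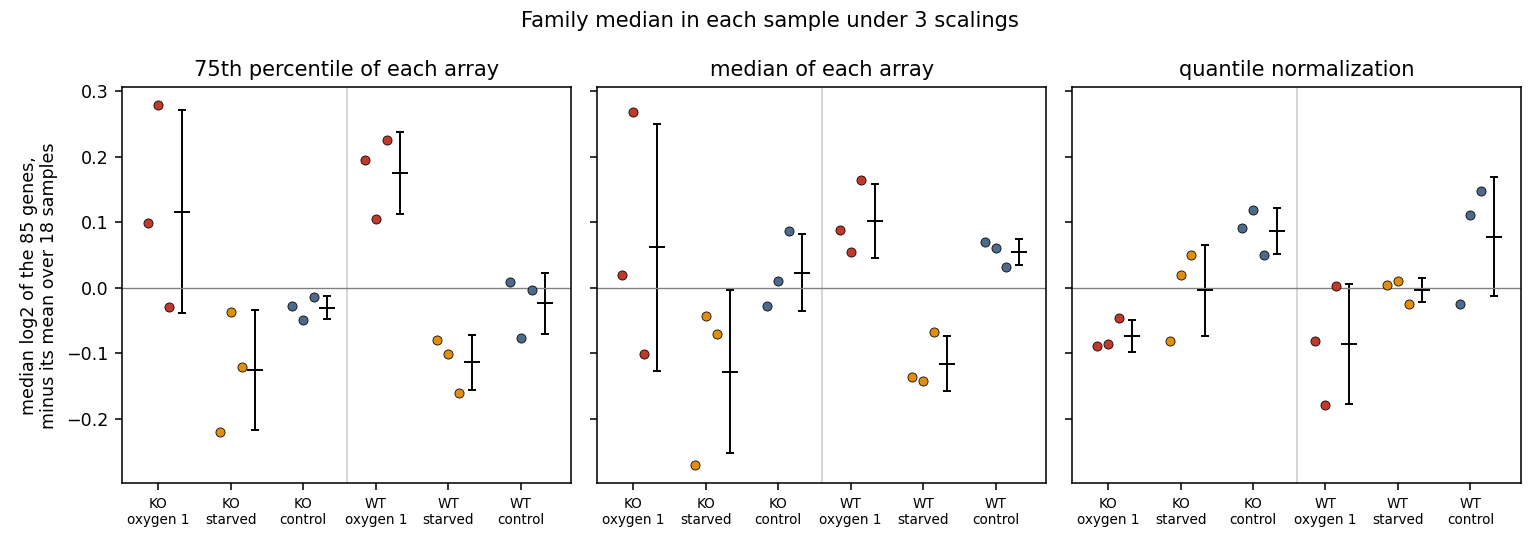
Each point is the median log2 value of the 85 genes in 1 sample, minus its mean over the 18 samples; bars give mean and SD of 3 samples. Low-oxygen samples are mostly above their controls with scaling to the 75th percentile, and mostly below them after quantile normalization.

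On the main scale, 6 of 43 large-subunit genes rose at low oxygen in knockout cells and 13 in wild-type cells, against 1 of 30 small-subunit genes in each genotype, which was Rps27, and 0 and 1 of the 3 stalk genes, where 21.3% and 20.5% of all genes rose. The medians were closer than these counts, at 0.22 and 0.17 for the large and small subunit in knockout cells and 0.26 and 0.21 in wild-type cells. All 8 genes that rose in knockout cells (Rpl22, Rpl27, Rpl35a, Rpl38, Rpl3l, Rpl5, Rpl7 and Rps27) were among the 16 of wild-type cells, and the 3 that fell in wild-type cells (Rpl22l1, Rpl3 and Rpl7l1) were among the 4 of knockout cells.

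Rpl37a, a large-subunit protein, read 8.19, 8.43 and 8.07 in knockout cells at low oxygen, against 7.90, 7.94 and 7.86 in knockout controls, and 8.30, 8.21 and 8.39 in wild-type cells at low oxygen, against 7.98, 7.76 and 7.68 in wild-type controls. The groups did not overlap in either genotype. The change was 0.33 ± 0.13 (SE, adjusted p = 0.0514) in knockout cells and 0.49 ± 0.13 (adjusted p = 0.00666) in wild-type cells, and 0.13 and 0.14 with quantile normalization. Rpl38, which mouse embryos need to translate Hox messengers, gave 0.34 and 0.28 (adjusted p = 0.0107 and 0.0309), and 0.060 and -0.090 with quantile normalization. Rpl27 gave 0.40 in both genotypes (0.0180 and 0.0184), and 0.089 and -0.0064 with quantile normalization. Rpl31 gave 0.30 and 0.47 (0.0696 and 0.00699), and 0.015 and 0.16 with quantile normalization, where the wild-type call was lost, as it was with each array's median (0.32) and the authors' table (0.16). Rpl9 gave 0.37 and 0.42 (0.0759 and 0.0462), and 0.11 and 0.052 with quantile normalization. With slide as a block the wild-type calls of Rpl37a (0.37, adjusted p = 0.0574) and Rpl9 (0.50, adjusted p = 0.0806) were lost, and those of Rpl38 in knockout (0.28, adjusted p = 0.0523) and wild-type cells (0.25, adjusted p = 0.119). In wild-type cells the calls of Rpl37a and Rpl31 held without any 1 sample, whereas the call of Rpl9 held in 12 of 31 alternatives. That of Rpl38 was lost without replicate 2 (0.22) or 3 (0.26) of the wild-type controls or replicate 2 (0.28) or 3 (0.25) of the low-oxygen samples. That of Rpl27 was lost without replicate 2 (0.36) or 3 (0.37) of the controls or replicate 1 (0.37) of the low-oxygen samples. In knockout cells Rpl27 was lost without replicate 1 (0.39) or 2 (0.36) of the controls or replicate 2 (0.24) of the low-oxygen samples. Without replicate 3 of the knockout cells at low oxygen, Rpl37a (0.41), Rpl31 (0.43) and Rpl9 (0.52) passed there too.

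The stalk protein Rplp2 read 7.95, 8.46 and 8.04 in knockout cells at low oxygen, against 7.82, 8.02 and 7.83 in knockout controls, and 8.37, 8.28 and 8.32 in wild-type cells at low oxygen, against 8.16, 7.68 and 7.61 in wild-type controls. Knockout groups overlapped and wild-type groups did not. The change was 0.26 (adjusted p = 0.245) in knockout cells and 0.51 (adjusted p = 0.0275) in wild-type cells, where the call was lost with quantile normalization (0.16), with slide as a block (0.32, adjusted p = 0.149), without replicate 2 or 3 of the controls (0.44 and 0.40) and without replicate 1, 2 or 3 of the low-oxygen samples (0.49, 0.53 and 0.51). Its partner Rplp1 gave 0.14 and 0.095, and Rplp0, which anchors the stalk, 0.028 and 0.22, neither past the test in either genotype.

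Rpl5 and Rpl11, which bind Mdm2 together when ribosome assembly is disturbed, gave 0.38 and 0.19 in knockout cells (adjusted p = 0.0180 and 0.146) and 0.33 and 0.29 in wild-type cells (0.0363 and 0.0293). With quantile normalization the values were 0.18 and -0.087 in knockout cells and 0.13 and -0.091 in wild-type cells. The knockout call of Rpl5 was lost without replicate 2 of the controls (0.33) or of the low-oxygen samples (0.27), and its wild-type call without 5 of the 6 samples compared, the exception being replicate 1 of the controls. The wild-type call of Rpl11 was lost without replicate 2 of the controls (0.22) or replicate 1 (0.28) or 3 (0.27) of the low-oxygen samples, and with slide as a block (0.27, adjusted p = 0.0913). Rps6, the substrate of the S6 kinases, gave 0.13 and 0.21 in knockout and wild-type cells, Rps19 0.22 and 0.16, Rps3 0.34 and 0.28, Rpl13a 0.14 and 0.17, Rpsa, the laminin receptor homologue, 0.19 and 0.27, and Rps27a, made as a fusion with ubiquitin, 0.093 and 0.32. None of these 6 passed the test at low oxygen (adjusted p of 0.0571 to 0.630).

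Under starvation the subunit and stalk genes did not pass the test in either genotype. In knockout cells 1 of the 85 genes rose and 1 fell, where 7.1% of all genes tested rose and 6.35% fell. In wild-type cells 0 rose and 1 fell, where 6.46% and 5.98% did. Those calls were the copies Rpl7l1 and Rpl22l1 described above. The median log2 change was -0.040 in knockout cells and -0.058 in wild-type cells, and the 76 subunit and stalk genes lay between -0.29 and 0.13 in knockout cells and between -0.42 and 0.18 in wild-type cells. The value of -0.42 was that of Rpl21, the dimmest of them, with a mean level of -1.93 against a median of 6.99. Of these 76 genes 2 had an unadjusted p under 0.05 in knockout cells and 1 in wild-type cells.

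Probes of 1 gene did not always agree. Of 51 genes with several probes, 10 had probes of opposite sign at low oxygen in knockout and 13 in wild-type cells, and 25 and 23 under starvation, but 0 had calls in opposite directions. The 137 probes with a mean level above 5 had a median change of 0.21 in knockout and 0.23 in wild-type cells at low oxygen, and the 32 dimmer probes 0.0055 and -0.060. Under starvation the dim probe of Rpl15 gave -0.52 in knockout and -0.56 in wild-type cells, and the dimmest probe of Rps6 gave -0.36 and -0.29, all past the probe-level test, while the brightest probes of these genes gave -0.061 and 0.021 for Rpl15 and -0.014 and 0.0079 for Rps6. Other dim probes had a positive change: that of Rpl17 gave 0.38 under starvation in knockout cells (adjusted p = 0.0150), and at low oxygen in knockout cells those of Rpl23, Rps24 and Rps15a gave 0.44, 0.49 and 0.88 (adjusted p = 0.0250, 0.0107 and 0.00213). These probes were singled out after their values were seen.

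Low oxygen and starvation were also set against each other directly. In knockout cells 18 of 85 genes were higher and 2 lower at low oxygen, where 19.2% of all genes were higher and 17.8% lower. In wild-type cells 27 were higher and 3 lower, where 19.8% and 18.2% were. The median was 0.23 in knockout and 0.27 in wild-type cells, and with quantile normalization -0.049 and -0.045, with 1 and 2 genes higher. The lower genes were Rpl7l1 and Rps27l in both genotypes and Rps19bp1 in wild-type cells, and these falls of the copies kept their direction under each scaling.

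Other parts of the translation machinery gave different counts at low oxygen. Of 53 ribosome assembly and ribosomal RNA synthesis genes 2 rose and 25 fell in knockout cells, and 2 rose and 28 fell in wild-type cells, against 18.2% and 18% of all genes that fell. Their medians were -0.36 and -0.32, and stayed between -0.47 and -0.31 in knockout and between -0.47 and -0.32 in wild-type cells over 30 alternatives, while the count of falls ranged between 17 and 32 and between 16 and 35. Dkc1, the pseudouridine synthase of nucleolar RNPs, fell 2.38-fold in knockout and 2.73-fold in wild-type cells. Among the 77 mitochondrial ribosomal proteins, which make up the separate ribosome of mitochondria, 3 rose and 41 fell in knockout cells, and 2 rose and 39 fell in wild-type cells, with medians of -0.33 in each. These medians stayed between -0.43 and -0.27 in knockout and between -0.48 and -0.26 in wild-type cells, with 21 to 51 and 21 to 48 falls. Mrpl16 fell 1.73-fold and 1.81-fold and Mrpl28 1.74-fold and 1.63-fold, while Mrpl45 rose 2.05-fold and 1.93-fold. With quantile normalization the mitochondrial medians were -0.34 and -0.37, against -0.059 and -0.091 for the cytosolic family. No test of this difference between lists was made.

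Under starvation 0 assembly genes rose and 8 fell in knockout cells, and 0 rose and 7 fell in wild-type cells, where 6.35% and 5.98% of all genes fell. Myc, which drives ribosome production, fell 1.96-fold and 1.93-fold, although it rose 1.63-fold and 1.50-fold at low oxygen, and Nop58, a box C/D snoRNP protein, fell 1.34-fold and 1.41-fold. Mitochondrial ribosomal proteins gave 3 rises and 3 falls in knockout cells and 2 and 2 in wild-type cells, of 77, where 7.1% and 6.46% of all genes rose.

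Of 22 tested translation factors and other messengers known to carry a TOP tract, 2 rose and 1 fell at low oxygen in knockout cells, and 3 rose and 2 fell in wild-type cells, where 21.3% and 20.5% of all genes rose and 18.2% and 18% fell. Under starvation 1 rose and 2 fell in knockout cells, and 1 rose and 3 fell in wild-type cells, where 7.1% and 6.46% of all genes rose and 6.35% and 5.98% fell. Vim, the intermediate filament protein vimentin, rose under both stresses, by 0.74 and 0.70 at low oxygen and by 0.80 and 0.69 under starvation in knockout and wild-type cells. Snhg1, a snoRNA host gene, fell by 0.42 and 0.57 under starvation. Fau, a ribosomal protein whose symbol falls outside the naming rule, gave 0.30 in knockout and 0.45 in wild-type cells at low oxygen (adjusted p = 0.0572 and 0.00821).

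Of 18 genes that control mTORC1, eIF2 or stalled ribosomes, 5 rose and 5 fell at low oxygen in knockout cells, and 5 rose and 3 fell in wild-type cells, few genes to set beside the 21.3% and 20.5% of all genes that rose and the 18.2% and 18% that fell. Ddit4, an inhibitor of mTORC1, rose 7.52-fold and 7.19-fold, and Eif4ebp1, the inhibitor of cap-dependent initiation that mTORC1 switches off, rose 2.59-fold and 2.48-fold. Under starvation 3 of them rose and 1 fell in knockout cells, and 3 rose and 0 fell in wild-type cells. Of all genes tested, 7.1% and 6.46% rose and 6.35% and 5.98% fell under starvation. The 1 gene that fell in starved knockout cells was Eif4ebp1, by 1.30-fold (limma adjusted p = 0.0114), opposite to its rise at low oxygen. It did not pass in starved wild-type cells. Ddit4 rose 1.83-fold and 1.46-fold under starvation. Rps6ka3, a kinase of the RSK family, rose 1.26-fold and 1.33-fold.

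**Figure D3:**
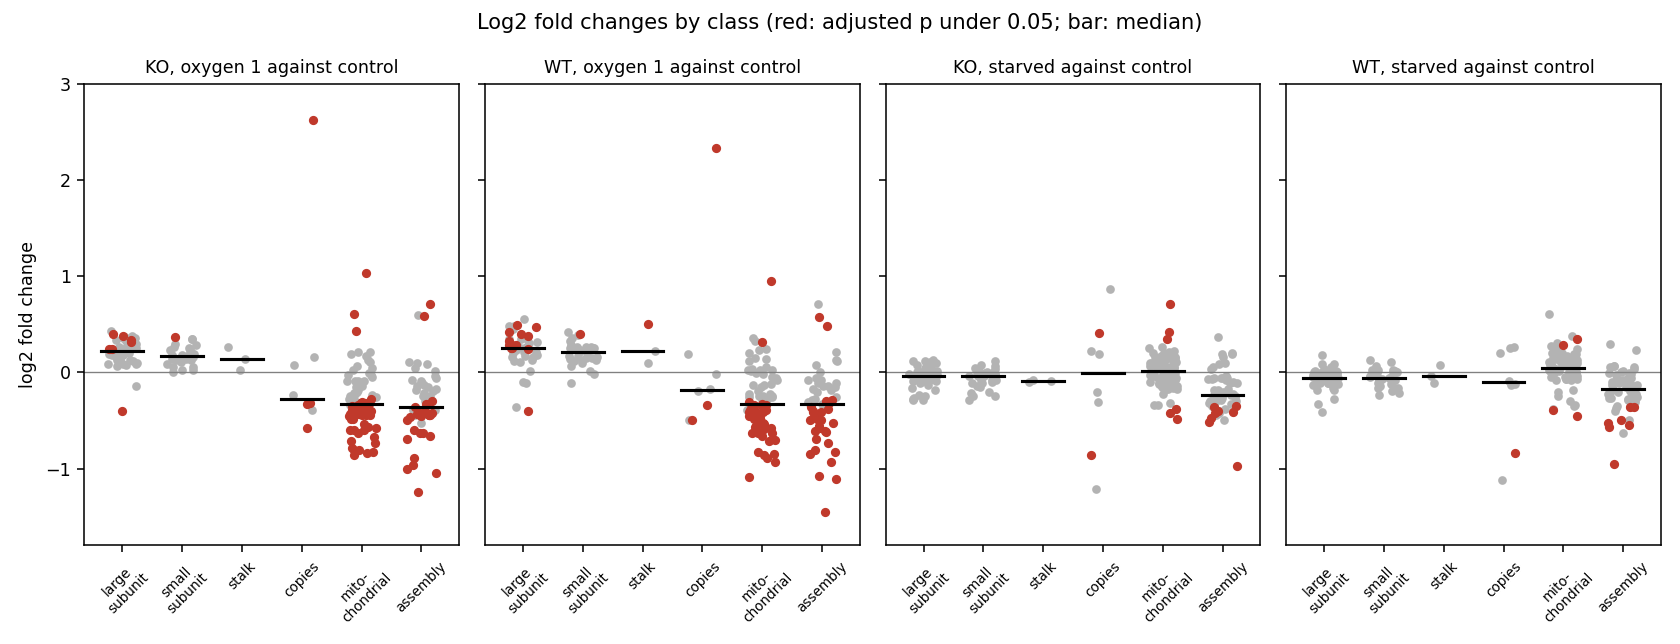
Each point is the log2 fold change of 1 gene, red where its adjusted p was under 0.05, and the bar is the median of the class; Rps19bp1 is left out. Large-subunit, small-subunit and stalk genes lie between -0.42 and 0.56 in all 4 comparisons. The medians of mitochondrial ribosomal proteins and assembly genes are below 0 at low oxygen, with single genes such as Mrpl45 (1.03 and 0.95) far above it.

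Knockout and wild-type cells were compared in each condition, to ask whether PHD3 bears on the family. In knockout against wild-type controls, knockout against wild-type cells at low oxygen and knockout against wild-type starved cells, 0 of 85 genes passed, as did 0 of all 20887 genes (limma; 0, 0 and 1 of the 85 genes had an unadjusted p under 0.05). The medians of the 76 subunit and stalk genes were -0.0044, -0.049 and -0.0056. The unadjusted 95% interval of a typical gene reached 0.27 on the log2 scale to either side of its value. Smaller differences could not be told apart at this number of samples. Larger ones did not pass the adjusted test either, such as 0.43 for Rpl21 at low oxygen and 0.69 for Rpl3l when starved. Both were read from dim probes, and Rpl21 read -1.54, -2.85 and -1.99 in wild-type cells at low oxygen. Within slides the family median at low oxygen was -0.22, 0.16 and -0.020 on the 3 slides that held both genotypes, with 1 array of each.

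The responses did not differ past the test either, in 0 of 85 genes for low oxygen and 0 for starvation (unadjusted p under 0.05 in 0 and 1). Across the 85 genes, knockout and wild-type responses correlated at r = 0.94 at low oxygen and 0.77 under starvation, and across the 76 subunit and stalk genes alone at r = 0.76 and 0.57. These are descriptions across genes that share their arrays, and the values are lower without the copies. Of the 85 genes, 80 had the same sign in both genotypes at low oxygen and 59 under starvation. Over all 20887 genes r was 0.93 and 0.82, and 18067 and 16411 genes had the same sign.

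**Figure D4:**
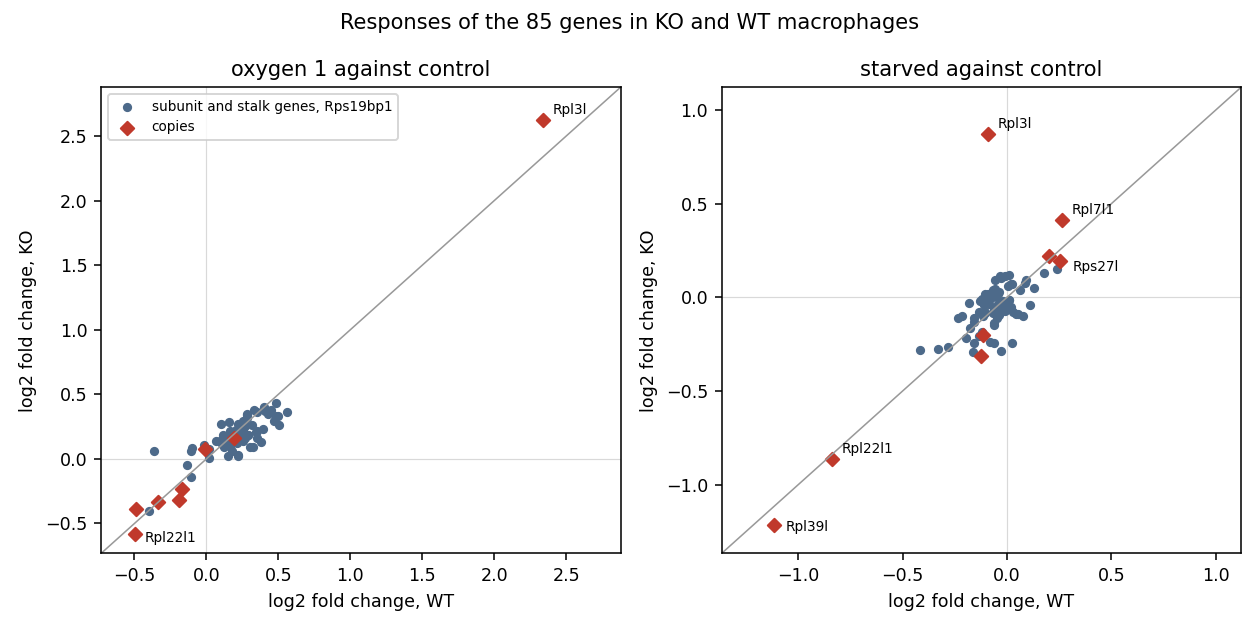
Each point is 1 gene, with its log2 fold change in wild-type cells on the x axis and in knockout cells on the y axis; the line marks equal values. Copies (diamonds) make up the ends of the range in both panels, and the subunit and stalk genes lie between them.

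Egln3, the targeted gene, rose 111-fold at low oxygen in samples labelled knockout and 82.1-fold in wild-type samples, and knockout against wild-type controls gave -0.49 ± 0.16 (SE, adjusted p = 1.00). The position of its probe relative to the deleted part is not known here, so it does not check the genotype.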

How the data were processed

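Array intensities were deposited as Agilent Feature Extraction 10.7.3.1 output, with background subtracted and detrended within each array, per the file headers. The authors' value table is taken as log2 from its range; limma, without a version, is named for it in the submitters' processing notes, and its centring is unknown. Here, log2 of the processed signal minus each array's 75th percentile was used; control and outlier spots were left out, spots of a probe and both arrays of 2 samples were averaged. Probes well above background in at least 3 of 18 samples were tested, with the brightest probe per gene, in limma 3.58.1 (R 4.3.3) on 6 group means, with Benjamini-Hochberg adjustment over 20887 genes at a threshold of 0.05. The normexp alternative used median spot signals, since a mean signal column was not used here. Fits were tested on simulated data. Named genes were the 6 largest non-overlapping rises and falls past the threshold per stress comparison, parent and copy pairs, stalk and role genes, and the leading genes of each comparison list. Members and lists were chosen with earlier results of these data known. Same-numbered samples deviated together past the limit of 0.1 in every pair only for low oxygen against starvation in knockout cells (0.15 to 0.18). Precision is limited by 3 samples per group.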

Additional observations from a re-analysis of the deposited data

How the results depend on the processing

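The family's shift at low oxygen depended on the scaling, and the cause was not tested. Median log2 changes of the 85 genes were 0.074 (knockout) and 0.086 (wild type) with each array's median, -0.059 and -0.091 with quantile normalization, -0.032 and -0.094 with the authors' table, -0.068 within slide 1 (knockout) and 0.12 within slide 2 (wild type). Against starvation they were -0.049 and -0.045 with quantile normalization, -0.010 and -0.047 with the authors' table and 0.10 within slide 1 (knockout). Under starvation they were -0.17 within slide 1 (knockout), 0.035 within slide 5 and -0.15 with normexp (wild type). Knockout minus wild type was -0.22 and 0.16 within slides 1 and 2 at low oxygen, and 0.099 with normexp for starved cells and for the starvation response.

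Rising genes at low oxygen numbered 1 (knockout) and 2 (wild type) with each array's median, 1 and 1 with quantile normalization, 1 and 1 with the authors' table, 0 and 5 with normexp, 1 and 7 in fits of the compared groups alone, 17 with the mean of all probes and 5 with slide as a block (knockout), and 7 without a filter (wild type). Falling genes numbered 2 and 1 with the first array alone, 2 and 0 without a filter, 0 and 0 with normexp, 1 and 0 in fits of the compared groups alone, and 6 and 7 with quantile normalization and the authors' table (wild type). Genes higher at low oxygen than under starvation numbered 8 and 11 with each array's median, 1 and 2 with quantile normalization, 1 and 2 with the authors' table, 0 and 16 with normexp, 7 and 14 in fits of the compared groups alone, and 9 without a filter (knockout). Under starvation in knockout cells 0 rose with the first array alone, without a filter, with normexp, with the compared groups alone or without the 3 samples that stood apart, and 2 fell with the mean of all probes. In wild-type cells 2 fell with each array's median, the mean of all probes, quantile normalization and the authors' table.

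Signs turned with quantile normalization and the authors' table for Rpl7 in knockout cells (-0.042 and -0.030) and, in wild-type cells, for Rpl11 (-0.091 and -0.092), Rpl13 (-0.034 and -0.035), Rpl22 (-0.099 and -0.099), Rpl27 (-0.0064 and -0.0071), Rpl34 (-0.15 and -0.15), Rpl38 (-0.090 and -0.093), Rpl7 (-0.13 and -0.13) and Rps27 (-0.0016 and -0.0032). With the mean of all probes Rpl22 was -0.37 under starvation in knockout cells.

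Leaving out 1 sample at a time gave 3 to 18 rises, 1 to 4 falls and medians of 0.11 to 0.27 at low oxygen in knockout cells, and 8 to 22, 0 to 3 and 0.18 to 0.27 in wild-type cells. Against starvation it gave 5 to 29 higher, 2 lower and 0.15 to 0.32 in knockout cells (lowest without replicate 2 and highest without replicate 3 of the low-oxygen samples), and 15 to 31, 2 to 3 and 0.25 to 0.29 in wild-type cells. Starvation gave 0 to 1 rises, 1 to 2 falls and -0.082 to -0.018 in knockout cells, and 0, 1 to 2 and -0.069 to -0.010 in wild-type cells. Knockout minus wild-type medians were -0.025 to 0.0094 in controls, -0.11 to 0.044 at low oxygen, -0.051 to 0.028 when starved, -0.12 to 0.055 for the low-oxygen response and -0.027 to 0.041 for the starvation response, with 0 calls.

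With the replicate block, 2 genes rose under starvation in knockout cells, and Rpl22l1 at low oxygen in wild-type cells had an adjusted p of 0.0501 in limma. Same-numbered samples did not deviate together past the limit in every pair in most comparisons (lowest -0.33, for the controls of both genotypes). Single genes did follow the replicate number. Rps4l read -0.56, -0.50 and -0.18 in wild-type replicate 1 at low oxygen, starved and in controls, the lowest of each group. In knockout replicate 3 it read 0.54, 0.70 and 1.09, the highest of each group. Whether same-numbered samples share a source was not tested. Same-numbered starved and control samples of a genotype shared a slide, and their deviations correlated at 0.067 to 0.25 in knockout and 0.0022 to 0.23 in wild-type cells. Same-numbered low-oxygen samples of knockout and wild-type cells also shared a slide. The main fit did not pair samples.

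The starvation calls of Rpl22l1 and the low-oxygen-against-starvation calls of Rpl7l1 and Rps27l held in all 31 alternatives in both genotypes. Signal over background limits Rpl3l, Rpl39l and the dim second probes, and 3 samples per group limit all tests.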
